A study of Homo sapiens with 2 samples.

Results

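Molecular chaperones are proteins that help others fold, and co-chaperones steer them. The genes described here are those whose symbol in the platform annotation carries the stem HSPA, HSPB, HSPD, HSPE, HSPH, HSP90, DNAJA, DNAJB, DNAJC, CCT, BAG, FKBP or STIP with a number, together with TRAP1 and TCP1, without pseudogenes and hyphenated symbols. The rule found 38 probe sets of 46255, which stand for 25 genes of the 14812 named genes. No subunit of the cytosolic chaperonin TRiC (the CCT genes and TCP1) is among them, and TRiC, the DNAJ co-chaperones, the HSP90 proteins of the cytosol and the endoplasmic reticulum (ER), HSPA5, HSPA8 and HSPE1 were not analysed here. The set is therefore made of HSP70 proteins, their exchange factors, small heat shock proteins, 2 FK506-binding proteins, STIP1 and 3 chaperones of mitochondria.

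The study set 1 array of BE(2)C cells given MYCN siRNA against 1 array of BE(2)C cells given control siRNA, each from RNA taken 36 hours after transfection with Lipofectamine 2000, a lipid reagent. BE(2)C is an established line of human neuroblastoma cells in which MYCN, a transcription factor gene of the MYC family, is amplified, and both arms come from this line. A single MYCN siRNA was used, the control siRNA came from another supplier, and the control array is titled as a reanalysis, a word left unexplained by the labels. An effect of lowering MYCN and any other effect of this siRNA cannot be told apart, and MYCN itself was not analysed here, so its knockdown is not shown.

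The values are log2 RMA values of Affymetrix Human Gene 2.0 ST arrays, which read each transcript with a group of short probes called a probe set. The median over all rows was 4.55 in the MYCN siRNA array and 4.603 in the control siRNA array. A gene counted as measured at or above that median in at least 1 array, which 10592 of the 14812 named genes did. Of 9 neuroblastoma markers, 8 were named, and they lay between 6.53 and 10.77 in the MYCN siRNA array and between 6.47 and 10.57 in the control siRNA array. DBH differed most, at 10.77 in the MYCN siRNA array and 9.32 in the control siRNA array. ISL1 was lower in the MYCN siRNA array (log2 difference −0.43), and the others had differences from −0.09 (HAND2) to 0.30 (CHGB). Of 10 markers of fibroblasts, leukocytes, epithelium and endothelium, 4 were named and 2 measured, the keratin gene KRT8 at 5.10 and 5.15 and the matrix gene LUM at 5.37 and 6.54 (MYCN siRNA array, then control siRNA array). The part of these markers in the results below was not tested. There is no replicate, so no p-value is given, and the spread between cultures is unknown. The only spread these data hold is that between probe sets of 1 gene, whose differences between the arrays had an SD of 0.317 over 374 pairs. That SD leaves out what the probe sets share, the RNA, the labelling and the arrays. Fewer cells of a type and less RNA per cell cannot be told apart in such bulk samples.

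HSP70 proteins bind unfolded stretches of other proteins and let them go in a cycle driven by ATP. J-domain proteins start the cycle, and exchange factors (the HSP110 and BAG proteins) end it by releasing ADP. HSP90 proteins act later, on clients handed over by the adaptor STIP1, and mitochondria hold their own HSP70 (HSPA9), HSP90 (TRAP1) and barrel-shaped chaperonin (HSPD1 with its lid HSPE1). Under heat or other stress the factor HSF1 binds heat shock elements in the promoters of many of these genes, while MYC proteins with their partner MAX bind the E-box CACGTG.

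Sequences near the starts of 4 of these genes show which of those letters they carry. All come from RefSeq on GRCh38.p14 and run 5′ to 3′ on the gene's own strand. HSPD1 and HSPA9 were picked with their values known, as both were lower in the MYCN siRNA array and hold an E-box before a start. It begins at −19 in HSPA9, and at −88 in HSPD1, nearer to the start of HSPE1. FKBP5, also lower and with an E-box at −227, is not shown. A link between the E-box and the differences was not tested. The first stretch is the whole 104 bases between the start of HSPD1 and the start of its neighbour HSPE1, which is read the other way (chr2:197500275-197500378, minus strand); the second is the last 120 bases before HSPA9 (chr5:138575402-138575521, minus strand). Capitals mark the E-box.
HSPD1: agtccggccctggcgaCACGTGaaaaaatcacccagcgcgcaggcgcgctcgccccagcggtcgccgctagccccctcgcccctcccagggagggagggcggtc
HSPA9: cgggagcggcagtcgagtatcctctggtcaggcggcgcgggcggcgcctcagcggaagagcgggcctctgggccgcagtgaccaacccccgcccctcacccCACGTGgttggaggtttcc

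The stress-inducible pair HSPA1A and HSPA1B is shown because the 2 genes are copies of each other. The bases shown lie before the starts and are not what the probes read. Their likeness therefore says nothing about mixing of the array values, and transcript and probe sequences were not compared. The stretches are the 120 bases before HSPA1A (chr6:31815423-31815542, plus strand) and before HSPA1B (chr6:31827618-31827737, plus strand), and capitals mark GAANNTTC, a pair of heat shock units.
HSPA1A: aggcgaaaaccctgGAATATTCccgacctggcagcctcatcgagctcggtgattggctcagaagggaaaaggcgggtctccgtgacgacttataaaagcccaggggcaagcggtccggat
HSPA1B: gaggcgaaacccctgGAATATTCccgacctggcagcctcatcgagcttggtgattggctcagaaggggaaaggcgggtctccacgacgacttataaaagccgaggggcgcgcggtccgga

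An alignment of these stretches had 111 identical bases, 8 mismatches and 2 gaps. A full heat shock element is the units GAA, TTC and GAA with 2 free bases between each, or the same on the other strand. It stood in 2 of the 22 member genes whose promoter windows were searched, HSPA6 and HSPD1. In HSPD1 it lies before the second of its 2 listed starts, in chr2:197500061-197500090 (minus strand), and capitals mark 2 overlapping matches.
HSPD1: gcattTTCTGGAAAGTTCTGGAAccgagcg

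Across the 23 measured members, 17 were lower and 6 higher in the MYCN siRNA array, while 48% of all measured genes were lower and 50.9% higher. The median difference of the members was −0.21 on the log2 scale, beside 0.01 for all measured genes. None was 2-fold lower or 2-fold higher (1.16% and 2.21% of all measured genes). The members that were at least 1.5-fold lower numbered 3, BAG2, TRAP1 and HSPH1, beside 5.79% of all measured genes, and none was 1.5-fold higher, beside 8.81%. In 10 of the 23 the difference was larger than the probe-set SD of 0.317, in 7 downward and in 3 upward (HSPB1, HSPA1L and the dim HSPB8). Of all measured genes 18.1% lay that far below 0 and 21.4% that far above. An offset of 16 on the linear values moved HSPB8 inside the SD. The downward FKBP5 also fell inside the SD, at −0.31, with this offset and after median centring.

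**Figure D1:**
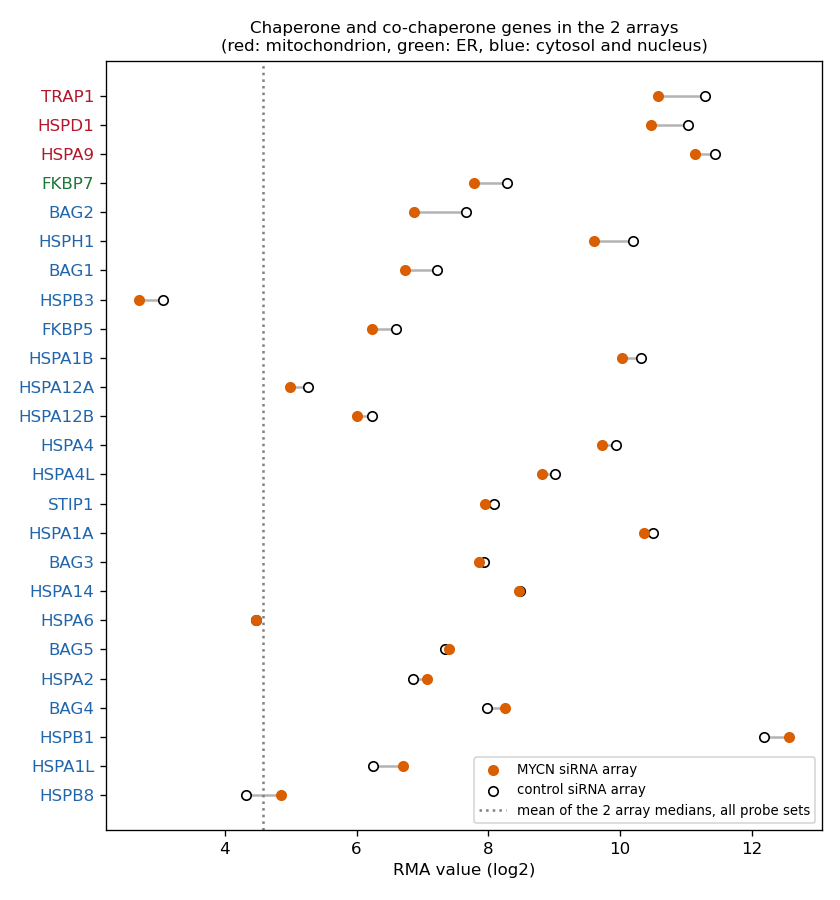
Log2 RMA values (x axis) of the 25 genes in the MYCN siRNA array (filled points) and in the control siRNA array (open points), 1 array each; names are red for mitochondrial, green for ER and blue for cytosolic and nuclear members, ordered by difference within each compartment. The filled point lies left of the open one for all 3 mitochondrial genes and for FKBP7, while cytosolic genes run from BAG2 (−0.80) to HSPB8 (0.52). HSPB8 passed the filter only through the MYCN siRNA array, where it is higher, so its difference is uncertain.

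The 3 mitochondrial chaperones were lower in the MYCN siRNA array, beside 48% of all measured genes. Their median difference was −0.56. TRAP1, the HSP90 of the mitochondrial matrix, was at 10.58 in the MYCN siRNA array and 11.29 in the control siRNA array. This is a difference of −0.71, or 1.63-fold lower, and 3.46% of all measured genes were as low or lower. HSPD1, the chaperonin subunit that encloses imported proteins, was at 10.48 in the MYCN siRNA array and 11.04 in the control siRNA array. It was 1.48-fold lower (difference −0.56), just short of 1.5-fold, and 6.47% of all measured genes were as low or lower. HSPA9, the matrix HSP70 that also pulls proteins through the import channel, was at 11.14 in the MYCN siRNA array and 11.45 in the control siRNA array. Its difference of −0.31 (1.24-fold lower) was within the probe-set SD, the smallest of the 3.

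Of 9 listed mitochondrial folding and protease partners outside the rule, 4 were measured, too few to give the group a direction, and 3 of these were lower (median −0.28), where 48% of all measured genes were. TIMM44, the membrane anchor of HSPA9 at the import channel, was at 8.25 in the MYCN siRNA array and 8.90 in the control siRNA array, 1.57-fold lower. CLPB, a disaggregase of mitochondria, had a difference of −0.34 and HSCB, the J-domain partner of HSPA9 in iron-sulfur cluster assembly, one of −0.21, within the probe-set SD. CLPX, the unfoldase of a matrix protease, was at 0.06.

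The ER was represented by 1 member. FKBP7, a prolyl isomerase of the ER lumen, was at 7.79 in the MYCN siRNA array and 8.29 in the control siRNA array, a difference of −0.50 (1.41-fold lower). Partner genes of the ER mostly lay close to 0. Of 9 measured among 14 listed, 2 were lower and 7 higher, beside 48% and 50.9% of all measured genes. Their median was 0.03, and they are too few to give the group a direction. The lectin chaperones CALR and CANX were at 0.07 and 0.01, the translocon J-protein SEC63 at 0.01 and the prolyl isomerase PPIB at 0.04. The ends of this list were SDF2L1, a partner of the ER HSP70 complex, at −0.38 and its relative SDF2 at 0.40. With 1 member, the ER cannot be set against the other compartments.

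In the cytosol and nucleus 13 of 19 measured members were lower and 6 higher, beside 48% and 50.9% of all measured genes. Their median was −0.14. The 6 include HSPB8, which passed the filter only through the MYCN siRNA array, where it is higher. The values of this class span those of both other classes, and members are not replicates, so a difference between the compartments was not tested. Its members are described by role.

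**Figure D2:**
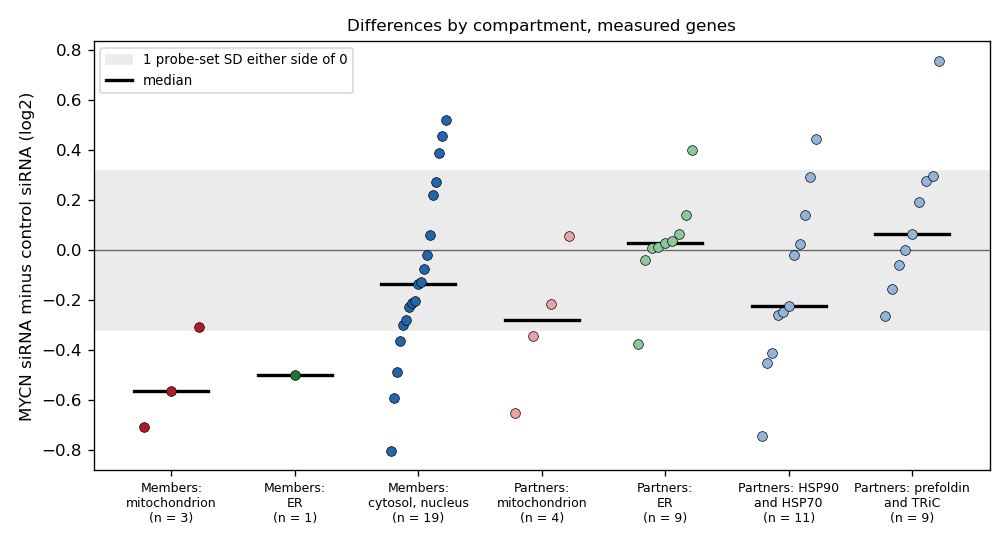
Difference of MYCN siRNA minus control siRNA (y axis, log2) of each measured member and partner gene, by compartment; points are genes, black bars are medians and the grey band is 1 probe-set SD (0.317) either side of 0. Mitochondrial members (median −0.56) lie below 0, cytosolic members spread on both sides, and ER partner genes mostly sit close to 0 (median 0.03). Among these ER partners, SDF2L1 (−0.38) and SDF2 (0.40) lie outside the band.

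Exchange factors held the lowest member. BAG2, an exchange factor of HSP70 that also restrains the ubiquitin ligase CHIP, was at 6.87 in the MYCN siRNA array and 7.67 in the control siRNA array. It was 1.74-fold lower (difference −0.80), and 2.40% of all measured genes were as low or lower. BAG1, which links HSP70 to the proteasome, was at 6.73 in the MYCN siRNA array and 7.21 in the control siRNA array, 1.40-fold lower. The other BAG genes differed less between the arrays. BAG3, which works with HSPB8 in selective autophagy, was at 7.86 in the MYCN siRNA array and 7.94 in the control siRNA array. BAG5 was at 7.41 in the MYCN siRNA array and 7.35 in the control siRNA array, and BAG4, which binds death receptors, was at 8.26 in the MYCN siRNA array and 7.99 in the control siRNA array. The differences of these 3, −0.08, 0.06 and 0.27, were within the probe-set SD, so the 5 BAG genes ran from −0.80 to 0.27.

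All 3 members of the HSP110 family, large relatives of HSP70 that act as its exchange factors, were lower, beside 48% of all measured genes. HSPH1, a heat-inducible member, was at 9.60 in the MYCN siRNA array and 10.19 in the control siRNA array, a difference of −0.59 (1.51-fold lower). It lay barely past 1.5-fold and fell short of it, at −0.54 to −0.58, after median centring, quantile or loess normalization and with an offset of 16. HSPA4 was at 9.73 in the MYCN siRNA array and 9.94 in the control siRNA array. HSPA4L was at 8.81 in the MYCN siRNA array and 9.02 in the control siRNA array. HSPA4 and HSPA4L had differences of −0.21 and −0.20, within the probe-set SD.

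The HSP70 proteins of the cytosol went both ways. HSPA1A and HSPA1B, the stress-inducible copies, and HSPA1L, a relative best known from testis, lie side by side on chromosome 6, and each was read by 5 probe sets. HSPA1A averaged 10.37 in the MYCN siRNA array and 10.49 in the control siRNA array, and its probe sets differed by −0.14 to −0.12. HSPA1B averaged 10.03 in the MYCN siRNA array and 10.33 in the control siRNA array, with differences of −0.33 to −0.22. HSPA1L was the opposite, at 6.70 in the MYCN siRNA array and 6.24 in the control siRNA array, with differences of 0.40 to 0.47.

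The starts of HSPA1L and HSPA1A lie 259 bases apart and point away from each other, so this stretch lies before both genes. Within each gene the probe sets agreed closely (SD 0.009 for HSPA1A, 0.045 for HSPA1B and 0.033 for HSPA1L), but 5 probe sets gave 3 distinct values for HSPA1A and for HSPA1L, so they are not 5 readings. HSPA1A and HSPA1B are near-identical, and the signal of one on the probes of the other cannot be told apart.

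**Figure D3:**
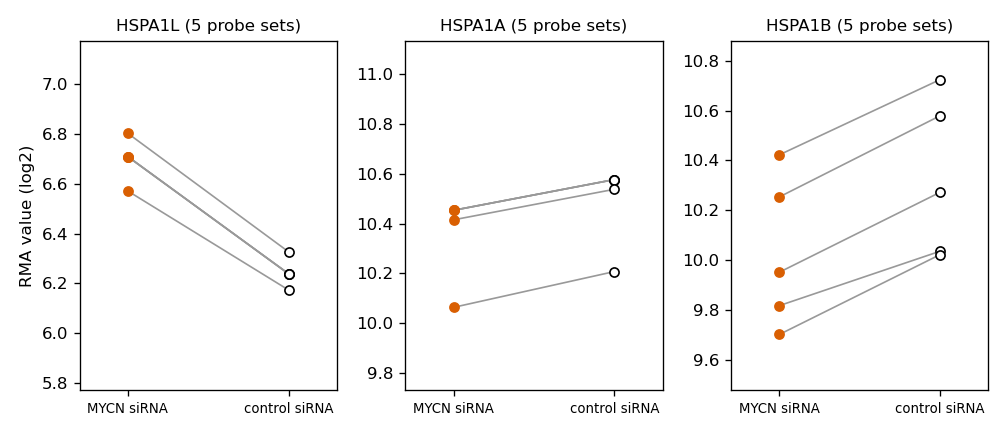
Log2 RMA values (y axis, same span in each panel, not starting at 0) of the 5 probe sets of HSPA1L, HSPA1A and HSPA1B in the MYCN siRNA array (filled) and the control siRNA array (open); lines join a probe set's values and some points coincide. Every line of HSPA1L is higher at the MYCN siRNA array, and every line of HSPA1A and HSPA1B is lower there.

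The other HSP70 members had differences within the probe-set SD. HSPA2, known for its role in male meiosis, was at 7.07 in the MYCN siRNA array and 6.85 in the control siRNA array (difference 0.22). HSPA14, which works at the ribosome on new chains, was at 8.46 in the MYCN siRNA array and 8.48 in the control siRNA array. HSPA6, which many human cells make under strong stress, was listed at 4.48 in both arrays, below both medians, and was not measured. The distant relatives HSPA12A and HSPA12B had differences of −0.28 and −0.23. The probe sets of HSPA12A gave −0.36, from a probe set below both medians, and −0.20.

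Of the small heat shock proteins, which hold unfolded proteins without ATP, only HSPB1 was measured in both arrays. HSPB1 was at 12.57 in the MYCN siRNA array and 12.19 in the control siRNA array, a difference of 0.39 (1.31-fold higher), and 17.2% of all measured genes were as high or higher. HSPB8, the partner of BAG3, was at 4.85 in the MYCN siRNA array and 4.33 in the control siRNA array. It passed the filter only through the MYCN siRNA array, where it is higher, so its difference of 0.52 is uncertain, and an offset of 16 on the linear values brought it to 0.31, within the probe-set SD. HSPB3, known from muscle, was at 2.69 in the MYCN siRNA array and 3.06 in the control siRNA array and was not measured.

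The HSP90 system of the cytosol was seen through its co-chaperones. STIP1, which bridges HSP70 and HSP90, was at 7.95 in the MYCN siRNA array and 8.09 in the control siRNA array, a difference of −0.14. FKBP5, a prolyl isomerase that holds steroid receptors with HSP90, was at 6.24 in the MYCN siRNA array and 6.61 in the control siRNA array, a difference of −0.36. Of 21 listed HSP90 and HSP70 partners 11 were measured, 7 of them lower (median −0.22), beside 48% of all measured genes. These genes are too few to give the group a direction. Among the 7, UNC45B was at 4.21 in the MYCN siRNA array and 4.66 in the control siRNA array. It passed the filter only through the control siRNA array, where it is higher, so its difference is uncertain. The lowest gene on this list was HSPBAP1, which was listed here although it is a protein that binds the small heat shock protein HSPB1. HSPBAP1 was at 6.63 in the MYCN siRNA array and 7.38 in the control siRNA array (1.67-fold lower). The kinase adaptor CDC37 was at −0.22, the co-chaperone PTGES3 at −0.25 and FKBPL at 0.45; the 2 probe sets of FKBPL held the same values, and 1 of the 2 of PTGES3 was equal in both arrays.

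The partners of TRiC did not lean downward. All 9 listed genes were measured, and 3 were lower and 5 higher, with PFDN5 equal in both arrays (median 0.06). Of all measured genes 48% were lower and 50.9% higher, and 9 genes are too few to give a direction. PDCL, a cofactor of TRiC in folding G protein beta subunits, was at 8.09 in the MYCN siRNA array and 7.33 in the control siRNA array, 1.69-fold higher. The prefoldin subunits, which deliver new actin and tubulin chains to TRiC, ran from −0.26 (PFDN6) to 0.28 (PFDN1). HSF1, the master factor of the heat shock response, was at 7.48 in the MYCN siRNA array and 7.43 in the control siRNA array, and HSF4 was at −0.03. Over all 35 measured partner genes 16 were lower and 18 higher, with a median of 0.01, which is that of all measured genes.

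**Figure D4:**
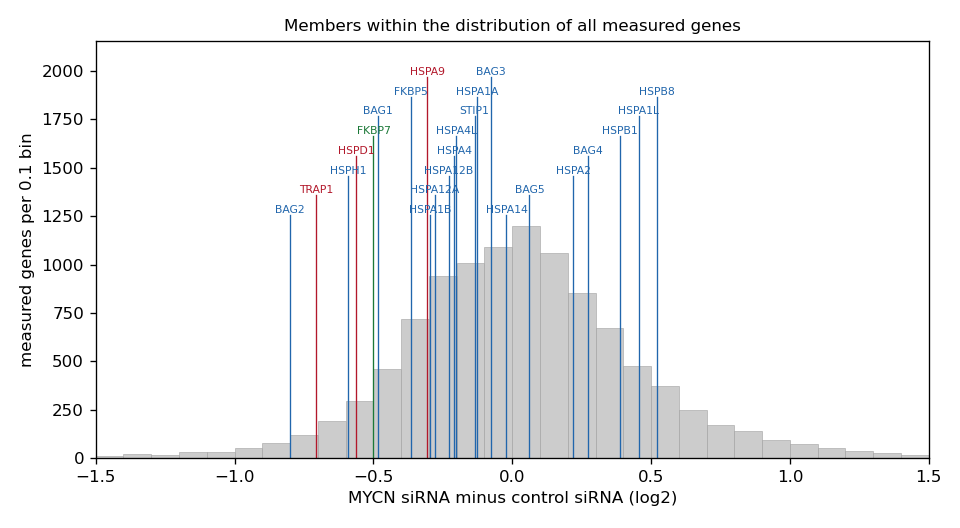
Number of measured genes (y axis) per bin of 0.1 of the difference MYCN siRNA minus control siRNA (x axis, log2, shown to 1.5 either side), with lines at the 23 measured members, red for mitochondrial, green for ER and blue for cytosolic and nuclear ones. BAG2, TRAP1, HSPH1 and HSPD1 lie in the lower flank, and HSPB1, HSPA1L and HSPB8 are the highest members. The dim HSPB8 passed the filter only through the MYCN siRNA array.

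The promoter windows, 250 bases before to 50 bases after each RefSeq start, were searched for 22 of the 25 genes (29 windows). HSPA12B and HSPA14 had no window listed, and BAG4 was left out of the search of members. The E-box CACGTG, which reads the same on both strands, stood in a window of 3 of the 22 genes (13.6%). It stood in 8.77% of the 27305 genes with a window and in 12.3% of the 8152 measured ones, so the members' share is near that of measured genes. Its first base was at −19 in HSPA9, at −88 in HSPD1 and at −227 before the second listed start of FKBP5. All 3 genes were lower in the MYCN siRNA array, with differences of −0.31, −0.56 and −0.36. TRAP1, BAG2 and HSPH1, the lowest members besides HSPD1, have no CACGTG in this window. Over all measured genes with a window, the 1004 with an E-box had a median difference of −0.03 (54.5% lower), and the 7148 without one had a median of 0.03 (45.9% lower).

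The full heat shock element stood in 0.608% of all genes with a window. In HSPD1 its matches began at −245 and −240 from the second start, downstream of the first one, and in HSPA6 the match began at −74. The shorter pair GAANNTTC, chosen after the values were seen and contained in the full element, stood in 8 of the 22 genes and in 8.21% of all genes with a window. The measured ones among them went both ways: BAG2, HSPD1, HSPA1B and HSPA1A were lower, and HSPB8, HSPA1L and HSPB1 were higher. HSPA6 was not measured, and HSPB8 passed the filter only through the MYCN siRNA array, where it is higher. Of the 499 measured genes with this pair 47.1% were lower, beside 47% of the 7653 without it. HSPA1L and HSPA1A share 1 site, which lies between their starts. The ER stress element, CCAAT and CCACG with 9 free bases between them, searched on both strands, stood in none of the 22 genes and in 0.0916% of all genes with a window. A match of letters is a description of the sequence and says nothing about binding in these cells.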

How the data were processed

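RNA from 1 culture per arm was hybridised to 1 array each. The deposited values are log2 RMA values of the authors, as the submitters' processing notes name the method; its settings, its software and any other arrays of the same run are not given in the labels. Rows were named through the platform annotation, and the identifiers of all 15835 named rows were found in RefSeq's genes on GRCh38.p14. A gene's probe sets were averaged, and a gene counted as measured if it reached the median of all rows in 1 or both arrays. Differences are MYCN siRNA minus control siRNA. Genes were counted at 1.5-fold and 2-fold. With 1 array per group no test was run, which limits the precision. The members, the compartment classes, the partner lists and the rule for named genes were written with earlier results of these data known. The rule names members past 1.5-fold, the extremes of each class and family, and the HSP90, HSP110, chaperonin and stress-inducible members; partner genes are named past 1.5-fold, and others in passing. Motifs were searched in RefSeq promoter windows of 250 bases before to 50 bases after each start. Python 3.11.15, pandas 2.3.3, numpy 2.4.6 and statsmodels 0.14.6 (loess) were used. Counting at 2-fold was tried on simulated data, and counting at 1.5-fold or at the probe-set SD was not. Alternatives were median centring, quantile and loess normalization, the brightest probe set, other filters, and an offset of 16 on linear values.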

Additional observations from a re-analysis of the deposited data

How the results depend on the processing

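Under 9 alternatives, 2 of them chosen after seeing the data (a filter in both arrays, and HSPA1A with HSPA1B as 1 gene), the median of the measured members stayed between −0.22 and −0.16, that of the mitochondrial members between −0.56 and −0.50, that of the cytosolic and nuclear members between −0.17 and −0.09, and FKBP7 between −0.53 and −0.45. Between 16 and 18 members were lower, of 21 (filter at the 70th percentile) to 25 (no filter) that were counted. Over all genes counted in the same way, 42.9% (median centring) to 49.1% (no filter) were lower. The count of members that was 1.5-fold lower was 3 or 2. The count that was 1.5-fold higher was 1 after loess, where the dim HSPB8 reached 0.59, and 0 otherwise; the offset of 16 brought HSPB8 down to 0.31. HSPA14 changed sign, to 0.03, after median centring; no other member did. The split by C-terminal motif was not run, since it needs protein sequences not used here, and TRiC gave no value. No paired analysis was possible because the labels give no replicate numbers and each group has 1 array, and no replicate could be left out. Dim genes such as HSPB8 lie so close to the array medians that a signal above background is not shown for them. The same holds for 1 of the 2 probe sets of HSPA12A, which was below both medians (3.88 in the MYCN siRNA array, 4.24 in the control siRNA array). Its other probe set was at 6.09 in the MYCN siRNA array and 6.29 in the control siRNA array.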

Other observations

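The pseudogene HSPA7, left out by the rule, was at 3.41 in the MYCN siRNA array and 4.25 in the control siRNA array, below both medians, while its relative HSPA6 was listed at the same value in both. Such equal values were found in 1859 of the 46255 rows (4.02%), PFDN5 and 1 probe set of PTGES3 among them, so a difference of 0 in a single row is not shown to be a measured equality. The pseudogene FKBP9P1 and the 3 hyphenated symbols were also below both medians.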
